A study of Mus musculus with 2 samples.

Results

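The tissue inhibitors of metalloproteinases (TIMPs) and the plasminogen activation genes were examined in cultures of ATDC5, mouse cells that turn into chondrocytes when insulin, transferrin and selenite (ITS) are added. The set held 9 genes, Timp1, Timp2, Timp3, Timp4, Plat, Plau, Plaur, Serpine2 and Serpinf1, of 20657 genes with a named probe. A probe was assigned to one of them when the RefSeq transcript given for it on the array belonged to that gene, which gave 11 probes. One culture was a stable line that expressed A-CEBP, a dominant-negative partner of the C/EBP transcription factors, from a doxycycline-inducible transgene, and the other, the control, was a stable line that expressed GFP in the same way. In both lines the transgene was induced with 2 µg/mL doxycycline over 2 days, and cells were then kept in ITS over 3 weeks, so that induction and differentiation were shared. Each group was 1 culture of 1 stable line on 1 array, and the sources used here do not give the number of clones in a line. What A-CEBP did and what else set the 2 lines or dishes apart cannot be told apart, and no p-value or SD between cultures was computed.

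TIMPs are small secreted proteins that block the active site of matrix metalloproteinases and of some related ADAM and ADAMTS proteases, and so slow the breakdown of collagen and aggrecan in cartilage. The plasminogen system works beside them. Tissue-type and urokinase-type plasminogen activators cut plasminogen to plasmin, a protease that dissolves fibrin and can switch on latent metalloproteinases, and inhibitors of the SERPIN family hold the activators and plasmin in check.

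The 9 genes differed little between the cultures. None was 2-fold apart, and the differences ran from -0.21 to 0.37 on the log2 scale (A-CEBP minus GFP), the largest being 1.29-fold. In such whole-culture RNA, fewer cells that make a transcript and less of it per cell cannot be told apart. The share past 2-fold among all 13860 genes measured on both arrays was 2.96%, made up of 1.26% with the higher signal in the A-CEBP culture and 1.7% with the lower. A set of 9 genes with none past 2-fold lies near that background. None of the 9 reached 1.5-fold either, a size that 8.51% of all genes reached, 4.7% upward and 3.8% downward in the A-CEBP culture. Of the genes past 2-fold, 42.4% were higher in the A-CEBP culture as reported and 66.9% with scaling on spike-in spots, so that their split depended on the scaling. The median difference of the 9 genes was 0.04 and that of all genes 0.05, with all-gene quartiles of -0.10 and 0.19. At any size 5 of the 9 were higher and 4 lower in the A-CEBP culture, where 59.1% of all genes were higher. This split also depended on the scaling, with 9 of the 9 higher after spike-in scaling and 4 of the 9 after cyclic loess.

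Levels below are log2 of the spot intensity minus the 75th percentile of the same array, so that 0 marks that percentile. That percentile was 906 intensity units in the A-CEBP array and 872 in the GFP array. The share of the 59305 gene spots that stood well above background was 58.0% in the A-CEBP array and 54.6% in the GFP array. All 11 probes of the set carried that mark on both arrays, none was saturated and none was marked as an outlier. All 10 chondrocyte markers examined, among them Col2a1, Acan and Sox9, were well above background on both arrays. Of 8 leukocyte and macrophage markers with a probe, 4 (Ptprc, Adgre1, Tyrobp and Fcgr3) were well above background on neither array. The other 4 were measured on both. The brighter probe of Itgam read 4.67 in the A-CEBP culture and 4.43 in the GFP culture, and that of Csf1r 0.63 and 0.77. The other probe of each gene had the opposite sign. Itgam differed by 0.23 at its brighter probe and -0.57 at the other, and Csf1r by -0.14 and 0.36. Cd14 read -0.92 in the A-CEBP culture and -0.08 in the GFP culture, and Lyz2 -3.63 and -2.81. Of the other marker lists, 2 of 6 endothelial, 2 of 4 platelet and megakaryocyte, 3 of 3 osteoblast and 4 of 4 fibroblast genes with a probe were measured on both arrays. Among the 4 fibroblast genes, 2 (Pi16 and Fap) were at least 2-fold lower in the A-CEBP culture, against 1.7% of all genes. Among the 10 chondrocyte genes, 3 (Acan, Hapln1 and Cnmd) were at least 2-fold higher there, against 1.26% of all genes. At any size all 4 fibroblast genes were lower (median -0.73). By the same count 9 chondrocyte genes were higher and 1 lower (median 0.63), where 59.1% of all genes were higher. What part these marker differences had in the values of the 9 genes was not tested.

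Each of the 11 probes had a single spot per array, so no member had replicate spots of its own. Measurement error was taken from 3 sources. The scanner software's error for the difference was 0.20 for most of the 11 probes and up to 0.33 for the dimmest, Timp4. For the bright probes that error is close to a fixed share of the signal on each array. Replicate spots of other probes gave a smaller figure, with an SD of the difference of 0.06 over the 73 brightest of 291 such probes and 0.18 over the 73 dimmest. Different probes of a gene differed more, with an SD of 0.19 over 3601 genes. These errors cover the measurement and not the variation between cultures.

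**Figure D1:**
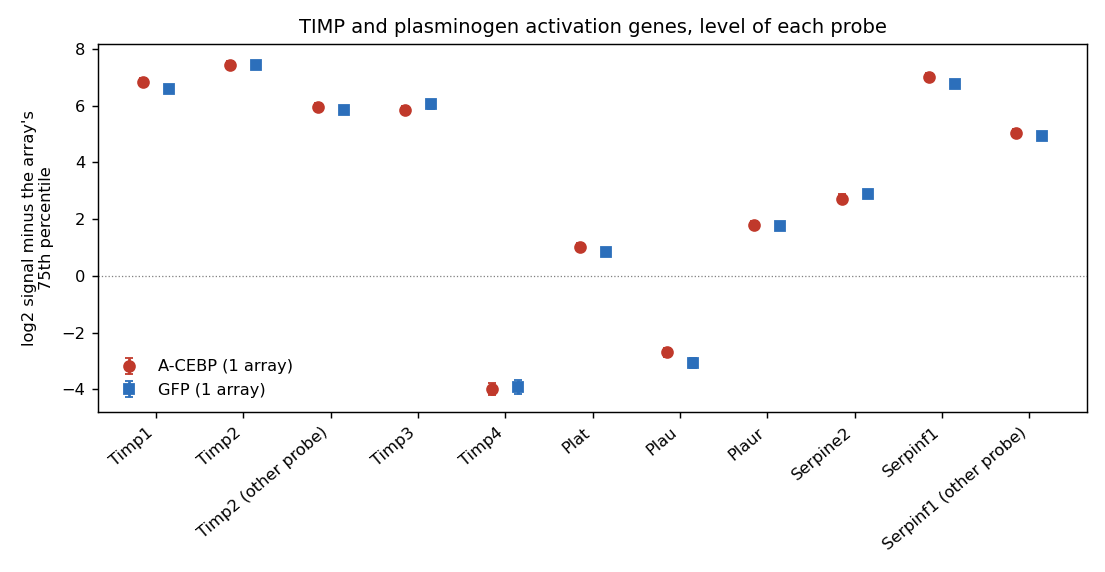
Level of each of the 11 probes of the 9 genes, as log2 signal minus the 75th percentile of the array, in the A-CEBP culture (circles) and the GFP culture (squares), with bars for the scanner software's error on 1 array. The 2 points of each probe lie close together, the widest gap being that of Plau at 0.37, and levels of different probes are not comparable with each other.

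Timp1, which encodes a secreted inhibitor of most metalloproteinases, had a processed signal of 103493 intensity units in the A-CEBP culture and 84313 in the GFP culture. The levels were 6.84 in the A-CEBP culture and 6.59 in the GFP culture, a log2 difference of 0.24, or 1.18-fold higher. This was 1.18 times the scanner error, whose 95% interval of the difference ran from -0.16 to 0.64. The single probe of Timp1 was therefore slightly brighter in the A-CEBP culture, by an amount that the scanner error alone does not tell apart from 0. It was larger than the SD of 0.06 between replicate spots of the brightest other probes, and than the 0.19 between probes of a gene. Of all genes, 32.0% differed by more than Timp1 did in either direction.

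Timp2 encodes an inhibitor that, besides blocking metalloproteinases, takes part with Mmp14 in activating the Mmp2 proenzyme. Its brighter probe read 7.44 in the A-CEBP culture and 7.44 in the GFP culture, with a difference of -0.01. Its other probe read 5.97 in the A-CEBP culture and 5.85 in the GFP culture, with a difference of 0.11. The 2 probes had opposite signs, both within the scanner error of 0.20, so Timp2 had no settled direction. With quantile normalization the brighter probe differed by -0.20, the lowest value it took under any setting.

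Timp3 encodes the inhibitor that binds to the extracellular matrix and also blocks the aggrecanases Adamts4 and Adamts5. Its signal was 51773 units in the A-CEBP culture and 57651 in the GFP culture. The levels were 5.84 in the A-CEBP culture and 6.05 in the GFP culture, a difference of -0.21 (1.16-fold lower), 1.03 times the scanner error, with an interval from -0.61 to 0.19. It was the lowest difference of the 9 genes, and its sign turned to positive (0.01) with spike-in scaling.

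Timp4, the family member best known from heart, was dim on both arrays. Its signal was 56.6 units in the A-CEBP culture and 57.9 in the GFP culture, and the raw spot was 3.15 times the local background in the A-CEBP array and 2.40 times in the GFP array. The levels were -4.00 in the A-CEBP culture and -3.91 in the GFP culture, above the lowest level of any probe well above background, which was -5.19 in the A-CEBP array and -4.73 in the GFP array. The difference was -0.09 with a scanner error of 0.33, the widest of the set, and its interval from -0.73 to 0.56 still lay within 2-fold.

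The plasminogen activators were both slightly brighter in the A-CEBP culture. Plat, which encodes tissue-type plasminogen activator, read 1.01 in the A-CEBP culture and 0.85 in the GFP culture, a difference of 0.16 (1.11-fold higher; interval -0.24 to 0.56). Plau, which encodes urokinase-type plasminogen activator, read -2.70 in the A-CEBP culture and -3.06 in the GFP culture, a difference of 0.37 (1.29-fold higher; interval -0.11 to 0.84). Plau had the largest difference of the set, larger than its scanner error of 0.24, and 18.5% of all genes differed by more. It was also dim, with a signal of 140 units in the A-CEBP culture and 104 in the GFP culture. After normexp background correction of the median spot signals its difference was 0.13. Both genes were higher in the A-CEBP culture under the main setting and all 11 alternatives run for them. These are not separate checks of direction. Each gene had 1 unmarked, detected probe, so keeping outlier spots, averaging over probes or dropping the detection filter could not change its value.

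Plaur encodes the receptor that holds urokinase at the cell surface. Its signal was 3168 units in the A-CEBP culture and 2970 in the GFP culture. The levels were 1.81 in the A-CEBP culture and 1.77 in the GFP culture, a difference of 0.04 (1.03-fold) with an interval from -0.36 to 0.44. Plaur lay close to the median of all genes, and 85.5% of genes differed by more. Its sign was negative with cyclic loess and with the authors' deposited values (-0.01).

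Because A-CEBP acts by keeping C/EBP factors off DNA, the RefSeq promoter windows (assembly GRCm38.p6, 250 bases before to 50 after the annotated start) were searched for C/EBP-type motifs. Windows were found for 7 of the 9 genes, all but Plat and Plau. The palindrome TTGCGCAA was in none of the 7 and in 0.183% of 32851 windows of all genes. The relaxed form TTNNGCAA, on either strand, was in 1 of the 7, Plaur, and in 10.8% of all windows. The AP-1 motif TGANTCA, which reads the same on both strands, was also in Plaur alone of the 7 and in 7.81% of all windows. The 250 bases before the Plaur start are shown because they are the only ones of the set that hold either motif. They lie at chr7:24462233-24462482 on the plus strand, with the AP-1 match, first in order, and the relaxed C/EBP match in capitals. Counted from the start site, the AP-1 match begins at -69 and the C/EBP match at -59, and they do not overlap. A letter match is a description and not a binding site, and windows without a match say nothing about the factor.
Plaur: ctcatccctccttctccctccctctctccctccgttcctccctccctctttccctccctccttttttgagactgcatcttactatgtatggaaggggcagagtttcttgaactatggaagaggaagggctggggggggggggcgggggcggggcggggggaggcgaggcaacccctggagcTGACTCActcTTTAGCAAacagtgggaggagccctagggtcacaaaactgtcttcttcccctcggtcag

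The 2 SERPIN genes had opposite signs. Serpine2 encodes protease nexin-1, an inhibitor of thrombin, urokinase and plasmin. It read 2.73 in the A-CEBP culture and 2.90 in the GFP culture, a difference of -0.17 (1.12-fold lower; interval -0.57 to 0.23), within the scanner error, and was 0.06 with spike-in scaling. Serpinf1 encodes pigment epithelium-derived factor, a SERPIN that does not inhibit proteases and is known for holding back blood vessel growth. Its brighter probe read 7.02 in the A-CEBP culture and 6.77 in the GFP culture, a difference of 0.24 (1.18-fold higher; interval -0.16 to 0.64). Its other probe read 5.05 in the A-CEBP culture and 4.94 in the GFP culture, a difference of 0.11. Both probes were thus brighter in the A-CEBP culture, with sizes that differed from each other by less than the SD between probes of a gene.

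**Figure D2:**
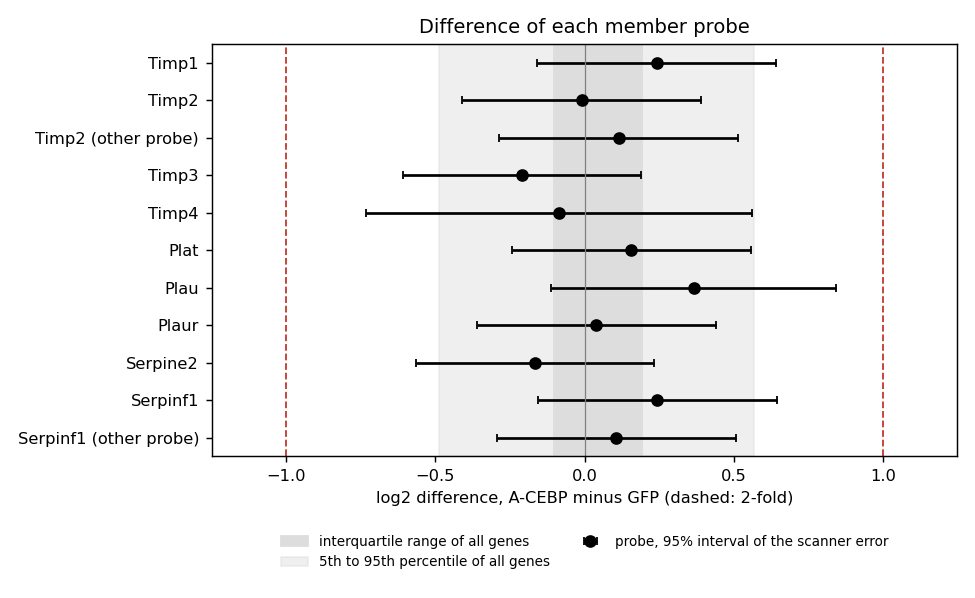
Log2 difference (A-CEBP minus GFP) of each of the 11 probes, with the 95% interval of the scanner software's error, over the interquartile range (dark band) and the 5th to 95th percentile (light band) of 13860 genes. All 11 intervals contain 0, and all 11 lie inside the dashed 2-fold lines.

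Across the 11 probes, the scanner-error intervals all held 0 and none reached 2-fold, their outer limits being -0.73 and 0.84. At 7 probes the difference was smaller than the scanner error, and at 4, those of Timp1, Timp3, Plau and the brighter probe of Serpinf1, it was larger. The range covered by the 9 genes took in 74.4% of all genes measured on both arrays.

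In the wider plasminogen system, Plg, the gene of plasminogen itself, was not well above background on either array. Of 7 genes of plasminogen receptors and clearance measured on both arrays, of 9 with a probe, 6 were higher and 1 lower at any size in the A-CEBP culture, with a median of 0.28, against 59.1% higher and a median of 0.05 over all genes. None was 2-fold apart, a size that 2.96% of all genes reached. The largest by the brightest probe were Eno1 at 0.54 and Vldlr at 0.50, with the other probe of Vldlr at 0.71. Eno1 is a glycolytic enzyme also described as a plasminogen receptor. Vldlr is a lipoprotein receptor that can take up protease-inhibitor complexes.

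Of 5 other inhibitors of plasminogen activators and plasmin measured on both arrays, of 9 with a probe, none was 2-fold apart and the median was 0.07. Serpini1, which encodes neuroserpin, an inhibitor of tissue-type plasminogen activator best known from neurons, read -1.76 in the A-CEBP culture and -2.36 in the GFP culture, a difference of 0.60, while its other probe differed by 0.19. Serping1, the inhibitor of complement C1 and kallikrein, read -1.29 in the A-CEBP culture and -0.60 in the GFP culture, a difference of -0.69, with its other probe at -0.78. Serpinb2, which encodes an inhibitor of urokinase, was not well above background on either array. Pzp was dim, and well above background in the A-CEBP culture only. It was at least 1.21-fold higher there, taken from the lowest detected level of the GFP array and without regard to measurement error. Serpinh1, a collagen chaperone of the SERPIN family, differed by 0.29.

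Of 6 genes of thrombin, tissue factor and fibrin measured on both arrays, of 15 with a probe, none was 2-fold apart and the median was -0.03. The fibrinogen gene Fga, dim on both arrays, differed by -0.36 with a scanner error of 0.40. F3, the gene of tissue factor, differed by -0.23, with its other probe at -0.39. F2rl1, a receptor cut by trypsin-like proteases, was well above background in the A-CEBP culture only. It read -3.90 in the A-CEBP culture and -4.59 in the GFP culture. The 1.61-fold between these dim readings is their plain ratio and not a lower bound.

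Among the metalloproteinases that TIMPs bind, with the membrane inhibitor Reck, 3 of 17 measured genes lay past 2-fold, each with the lower signal in the A-CEBP culture, a direction and size that 1.7% of all genes showed. The list had 24 genes with a probe, and the median of the 17 measured on both arrays was -0.19, against 0.05 for all genes. At any size 6 of the 17 were higher and 11 lower in the A-CEBP culture, where 59.1% of all genes were higher. Reck, an inhibitor counted here with the proteases, was among the higher ones, at 0.49 for both of its probes. Mmp3, which encodes stromelysin 1, read -2.74 in the A-CEBP culture and 1.17 in the GFP culture, 14.9-fold lower (a difference of -3.90, or -3.18 after normexp background correction). Mmp11, stromelysin 3, read 3.25 in the A-CEBP culture and 4.30 in the GFP culture, a difference of -1.05, with its other probe at -1.06. Mmp13, the main collagenase of cartilage, read 2.67 in the A-CEBP culture and 3.74 in the GFP culture, a difference of -1.07. Mmp11 and Mmp13 lay just past 2-fold and were at -0.83 and -0.85 with spike-in scaling, and Mmp11 also lay just short of 2-fold, at -0.997, with no scaling. Mmp24 was well above background in the A-CEBP culture only, though it read lower there (-5.01) than in the GFP culture (-4.64). Near the floor, that mark on 1 array thus need not go with the higher reading. Mmp14, the membrane protease that works with Timp2, differed by -0.41. Beside these proteases, Timp1, Timp2, Timp3 and Timp4 differed by 0.24, -0.01, -0.21 and -0.09. Whether the protease and inhibitor genes differ from each other across cultures was not tested, since each group was 1 array.

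**Figure D3:**
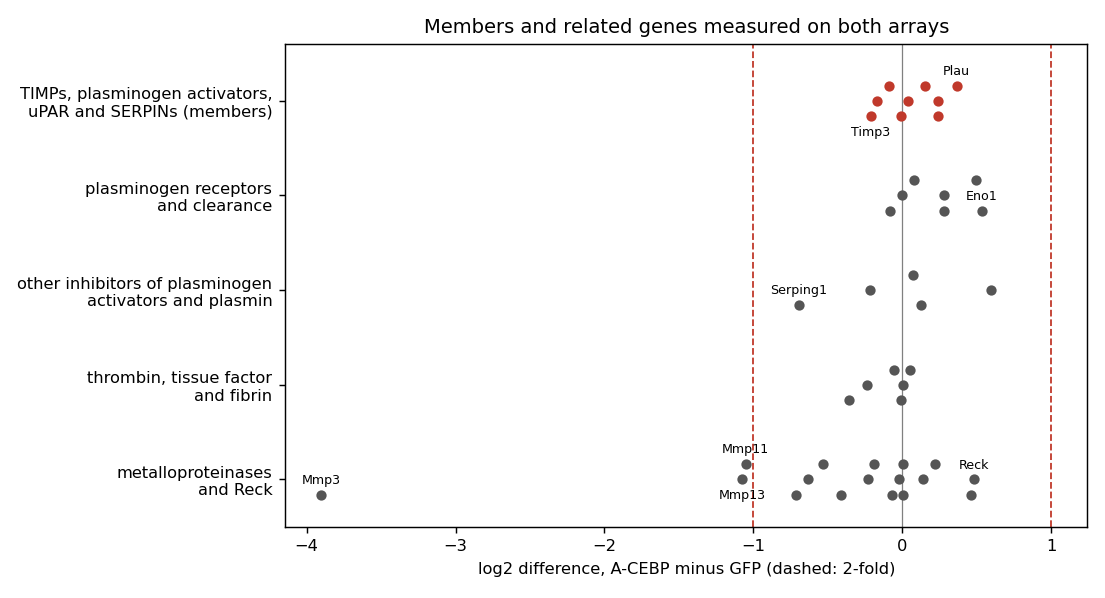
Log2 difference (A-CEBP minus GFP) of the 9 genes (top row) and of 4 lists of related genes, 1 point for each gene measured on both arrays, spread vertically within a row for legibility. Mmp3, Mmp11 and Mmp13 lie left of the dashed 2-fold line, and every member lies between -0.21 and 0.37.

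In the mouse annotation, 3 of the 4 TIMP genes lie within a synapsin gene: Timp1 within Syn1, Timp3 within Syn3 and Timp4 within Syn2. Synapsins are proteins of synaptic vesicles. Syn1 read 1.24 in the A-CEBP culture and 0.70 in the GFP culture, a difference of 0.54. Syn2 read -2.79 in the A-CEBP culture and -3.43 in the GFP culture, a difference of 0.64 that was 0.37 after normexp correction. Syn3 read -4.12 in the A-CEBP culture and -4.50 in the GFP culture, a difference of 0.38 that was 0.06 after normexp correction. All 3 enclosing genes were thus higher at any size in the A-CEBP culture, under every setting run, where 59.1% of all genes were higher as reported. Syn2 and Syn3 were dim on both arrays. Inside these genes, Timp1 differed by 0.24, Timp3 by -0.21 and Timp4 by -0.09. These 3 genes were looked up after the values of the TIMPs had been seen.

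**Figure D4:**
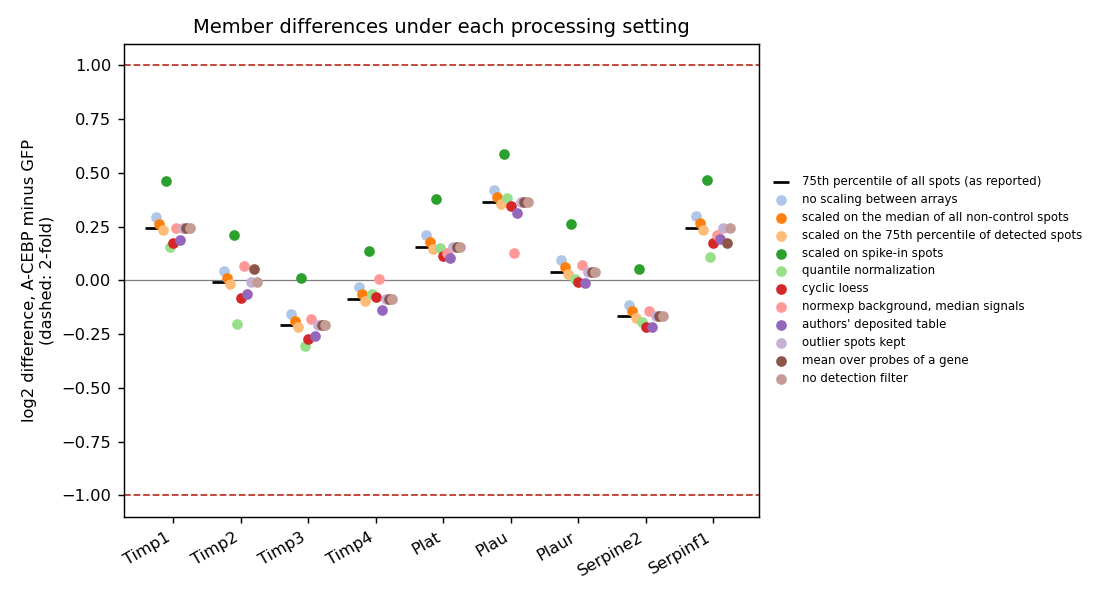
Log2 difference (A-CEBP minus GFP) of the 9 genes under the reported processing (black bars) and 11 alternatives (points). No point reaches the dashed 2-fold lines, and spike-in scaling gives the highest value for each gene, from 0.01 for Timp3 to 0.59 for Plau.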

How the data were processed

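Cy3-labelled RNA of 2 cultures, made from 0.1 µg total RNA each, was measured on 1-colour Agilent arrays, per the labels. The authors' scanner files give linear intensity for each spot, from which Agilent Feature Extraction 10.10.1.1 had removed background and spatial trend, per the file headers and the submitters' processing notes. The authors' deposited series table holds the same intensity values, each array multiplied by 1 constant (1.15 for A-CEBP, 1.24 for GFP), with column medians of 67.4 and 70.9. It is linear and not centred, and the sources used here do not say where the constants come from.

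Scanner values were put on the log2 scale relative to the 75th percentile of their own array. Control spots and 293 outlier-marked spots were left out, and a probe's spots were averaged. It was well above background when over 50% of its spots were so marked. The brightest such probe stood for a gene. For genes well above background on 1 array only, the difference was taken from the higher of the dim reading and that array's lowest such level. Only where that lowest level was used, as for Pzp, is it given as a lower bound. Of 55671 probes, 27229 matched 1 RefSeq gene (GRCm38.p6, used for names and for which genes enclose each other). The array design names build mm9, so no gene coordinates are given, and promoter positions are those of GRCm38.p6. With 1 array per group there was no test, and the size rule was 2-fold. The 95% interval of a difference is 1.96 times the scanner error on each side. Having 2 arrays limits the precision.

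The members and lists were chosen with earlier results of these data known. Every member was named. From each list of related genes those at least 2-fold apart were named, otherwise the 2 with the largest difference, and Serpinb2, Plg, Mmp3, Mmp13 and Mmp14 whatever their value. The genes F2rl1, Pzp, Mmp24, Reck and the synapsins were named after their values were seen. One gene of the lists is not reported here. Likeness of pattern between genes cannot be measured with 2 arrays. Normexp (offset 50) used the spots' median signals. Spike-in scaling used the median of spot-by-spot differences over 280 spike-in spots, since spike-ins differ in concentration. The procedure was tested on simulated data. Tools were Python 3.11.15, pandas 2.3.3, R 4.3.3 and limma 3.58.1.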

Additional observations from a re-analysis of the deposited data

How the results depend on the processing

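No member gene passed 2-fold in either direction under the main setting or the 11 other settings, and none passed 1.5-fold as reported. Plau, at 0.59, did so with spike-in scaling. The median of the 9 genes was 0.04 as reported. It was 0.26 with spike-in scaling, which moved the median of all genes to 0.27, against 0.05 as reported, so the members' median relative to all genes stayed at -0.01. It turned slightly negative with cyclic loess and with the authors' deposited table (-0.01 each). Timp1, Plat, Plau and Serpinf1 were positive under all 12 settings, while Timp2, Timp3, Timp4, Plaur and Serpine2 changed sign under at least 1. Over the members' probes, 104 of 117 recomputed differences moved by less than the SD of 0.19 between probes of a gene. The 13 others were the 11 probes with spike-in scaling, Timp2 with quantile normalization and Plau with normexp. Part of the 117 could not move. No member spot carried an outlier mark and all were well above background, so keeping outlier spots or dropping the detection filter changed nothing. Averaging over probes could not change the 7 genes with 1 probe. Settings that only rescale an array shift every probe by the same amount. The tally is therefore no measure of how robust the differences are.

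The count of all genes at least 2-fold apart, 410 as reported, was 271 with normexp background, 1486 without the detection filter, which adds dim genes (20657 in all), and 1179 under a 1.5-fold rule. With spike-in scaling it was 523, of which 66.9% were higher, against 42.4% as reported. Timp4 and Plau were dim, so that signal over background limits their values. No paired analysis was possible because each group held 1 sample, and for the same reason no replicate could be left out.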
